A study of Mus musculus with 20 samples.

Results

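The 10 genes described here (Chrna3, Chrnb4, Chrna5, Chrna6, Chrnb3, Chrna4, Chrnb2, Chrna7, Chrna9 and Chrna10) encode subunits of neuronal nicotinic acetylcholine receptors, and they are 10 of the 55416 genes counted. They were picked as a receptor family because Chrna3 and Chrnb4 were among the genes lowest in knockout ganglia in an earlier analysis of 6 of these animals. Their differences between genotypes are therefore given as a description. Where the text counts subunits past the threshold of a fit over all genes, the share of all genes past it stands beside. Counts under alternative settings, in the last section, stand without this share. Nothing is read from any of these counts. Tests are read for the effect of formalin on the subunits, which played no part in the choice. For other genes of the nicotinic system, p-values by deposited name are given. The lists of these genes were chosen with earlier results of these data known, so these p-values describe the animals at hand.

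Dorsal root ganglia of the lumbar segments L3 to L5 came from adult C57Bl6 mice of both sexes, taken 1 month after tamoxifen. By title, 5 animals were controls with floxed Prdm12 alleles and tamoxifen (genotype label P12 Fl/Fl TAM). The other 5 were icKO animals, inducible conditional knockouts with the same alleles and tamoxifen plus a Cre (genotype label AdvCreERT2; P12 Fl/Fl TAM). Every animal gave a library labelled formalin and a noninjected one. Formalin is an irritant that causes inflammatory pain, and its site, dose and interval before dissection are not stated here. By these labels, the animals titled control had the floxed alleles and the tamoxifen but not the Cre. The labels name an Adv promoter for the Cre, while the series text names Rosa26, which differ in the cells they drive, and both are given as they stand. Prdm12 encodes a transcriptional regulator of the nociceptor lineage.

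Nicotinic receptors are cation channels built from a ring of subunits around a pore that acetylcholine or nicotine opens. Alpha subunits carry most of the binding site, Chrna3 with Chrnb4 and Chrna4 with Chrnb2 form the classic pairs of autonomic ganglia and brain, Chrna5 and Chrnb3 join other pairs as accessory subunits, and Chrna7 and Chrna9 can form channels alone. Sensory neurons are known to carry several of these receptors, and Chrna6-containing receptors have been linked to pain sensitivity in mice.

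Besides the title, the name under which each library was deposited holds a genotype word, and the 2 records differ for both libraries of 4 animals. Control 1 and control 4 were named icKO, and icKO 2 and icKO 3 were named control. Below, "titled" and "named" say which record is meant, and animals keep their titles. Of 20 libraries, 19 were used, with 11763893 to 22392635 counts each. The icKO 1 formalin library held 2829 counts, 0 of them on any of the subunits, and was left out, so that the value of icKO 1 comes from its noninjected library alone. Prdm12, the targeted gene, was at 18.0 to 33.2 counts per 1000000 (CPM) in the 5 animals named icKO and at 73.2 to 100.4 CPM in the 5 named control, with formalin and noninjected libraries summed per animal. It lay on the side of the deposited name in each of the 4 animals whose records differ. Reads outside the floxed exons, which the labels do not name, can remain.

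Per kilobase of exon, Chrna6 was the most abundant subunit, with a median of 44.7 CPM per kilobase over the 10 animals. It was followed by Chrnb2 at 9.90 and Chrna7 at 9.15 CPM per kilobase, then by Chrnb3 at 2.79, Chrna3 at 2.30 and Chrnb4 at 1.76. Chrna4 was at 0.54, Chrna10 at 0.25 and Chrna5 at 0.071 CPM per kilobase. Chrna9, a subunit of inner ear hair cells, came last at 0.0057, with at most 2 counts in a library and 0 counts in 12 of the 19 libraries. Of the neighbours in this order, the ranges of Chrna6 and Chrnb2 and those of Chrna5 and Chrna9 did not overlap between animals, and the ranges of the others did. After the filter on low counts, 9 of the 10 subunits could be fitted in animal totals (all but Chrna9) and 8 in single libraries (Chrna5 dropped as well). The spread between animals differed among subunits. The highest animal was 1.80 times the lowest for Chrnb2 and 1.89 times for Chrna4, against 8.40 times for Chrna3 and 13.6 times for Chrnb4.

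**Figure D1:**
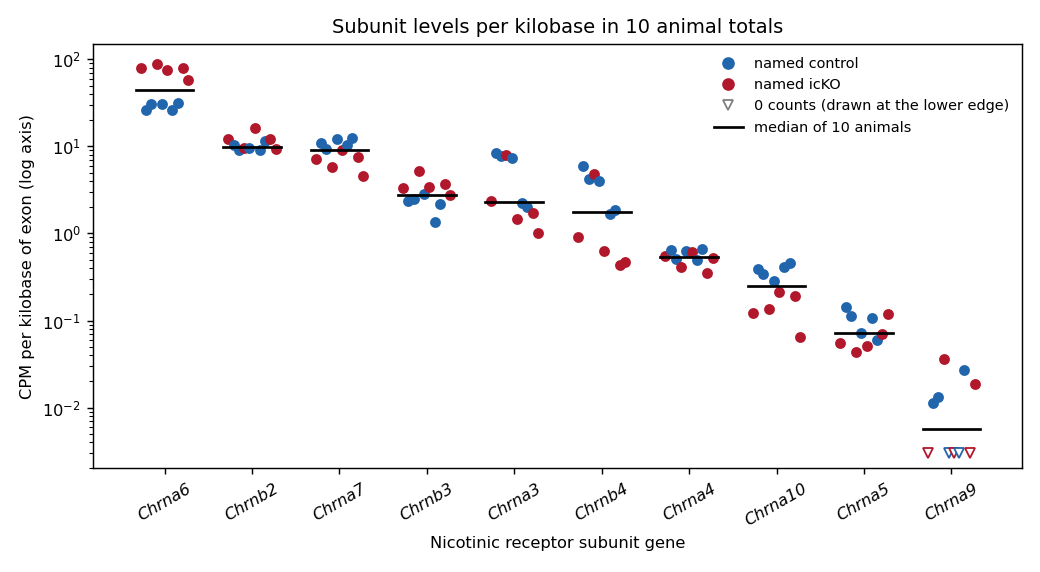
Level of each subunit gene in the 10 animal totals, in CPM per kilobase of exon on a log axis, with the median as a line and colours for the genotype word of the deposited name. The medians fall from 44.7 for Chrna6 to 0.0057 for Chrna9, and the points of Chrna6 split by named genotype.

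Chrna5, Chrna3 and Chrnb4 lie side by side in the genome, and the upstream regions of these genes are shown because Chrna3 and Chrnb4 moved together while Chrna5 stayed near 0 counts. Promoter sequences, 250 bases before to 50 after the start, came from RefSeq (GRCm38.p6) and matched 8 of the 10 subunits. Capitals mark the GC box GGGCGG, the motif bound by Sp factors, searched on both strands.
Chrna3, chr9:55026513-55026812, minus strand: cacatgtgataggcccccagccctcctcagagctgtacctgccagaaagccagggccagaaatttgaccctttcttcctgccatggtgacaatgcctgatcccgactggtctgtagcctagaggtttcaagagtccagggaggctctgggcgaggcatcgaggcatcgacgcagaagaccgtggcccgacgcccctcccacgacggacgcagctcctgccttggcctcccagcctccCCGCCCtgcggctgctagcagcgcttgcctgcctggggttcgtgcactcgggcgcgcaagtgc
Chrnb4, chr9:55048495-55048794, minus strand: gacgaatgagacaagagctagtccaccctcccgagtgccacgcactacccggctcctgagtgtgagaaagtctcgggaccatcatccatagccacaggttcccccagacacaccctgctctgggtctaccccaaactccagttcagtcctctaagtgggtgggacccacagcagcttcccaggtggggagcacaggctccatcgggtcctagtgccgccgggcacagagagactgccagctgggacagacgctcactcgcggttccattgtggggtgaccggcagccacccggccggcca
Chrna5, chr9:54980630-54980929, plus strand: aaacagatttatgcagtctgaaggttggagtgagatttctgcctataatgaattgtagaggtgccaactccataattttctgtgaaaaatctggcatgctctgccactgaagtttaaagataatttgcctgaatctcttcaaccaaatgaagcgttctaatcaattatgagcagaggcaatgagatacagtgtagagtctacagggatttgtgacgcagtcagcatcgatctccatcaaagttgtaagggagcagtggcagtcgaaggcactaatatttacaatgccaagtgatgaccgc
The windows of Chrna3 and Chrnb4 were 64.3% and 63.0% G and C, above the median of 52.7% over all promoters, and that of Chrna5 was 41.3%. The GC box was in the Chrna3 window and not in the other two windows, and 35.7% of 32851 mouse promoters of this length hold it. The E-box CANNTG, which 72.3% of promoters hold, was found 3 times upstream of Chrna3 and 2 times each upstream of Chrnb4 and Chrna5. No match of the SOX core ACAAAG (18.7% of promoters) or the homeodomain core TAATTA (5.29%) was in these windows. A match is a string of letters only, and no binding was measured.

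Chrna3, the alpha subunit of the ganglionic receptor, was high in 5 libraries, all of animals titled control. Formalin libraries of control 2, 3 and 5 were at 53.2, 69.2 and 64.8 CPM, and the noninjected libraries of control 2 and control 4 at 37.5 and 60.0 CPM. The other 14 libraries lay between 5.28 and 17.1 CPM. Within control 3 the formalin library was 4.04 times the noninjected one (17.1 CPM), and within control 5 it was 4.47 times (14.5 CPM). In control 4 the order turned, with 15.3 CPM in the formalin library, 3.91 times lower than in the noninjected one. Both libraries of control 1 were low, at 12.3 CPM with formalin and 12.6 CPM without. Animals titled icKO were low in every library, from 5.28 CPM in the noninjected library of icKO 5 to 12.8 CPM in the formalin library of icKO 3.

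Chrnb4, the beta partner of Chrna3, was high in the same 5 libraries. It was at 22.9, 24.1 and 24.6 CPM in the formalin libraries of control 2, 3 and 5, and at 21.3 and 28.0 CPM in the noninjected libraries of control 2 and 4. The remaining 14 libraries held 0.98 to 8.59 CPM. Among these 14, set apart after their values were seen, the 6 named control were at 5.79 to 8.59 CPM and the 8 named icKO at 0.98 to 4.00 CPM. Chrna3 showed no such division in the 14, with 8.26 to 17.1 CPM in those named control and 5.28 to 15.3 CPM in those named icKO.

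**Figure D2:**
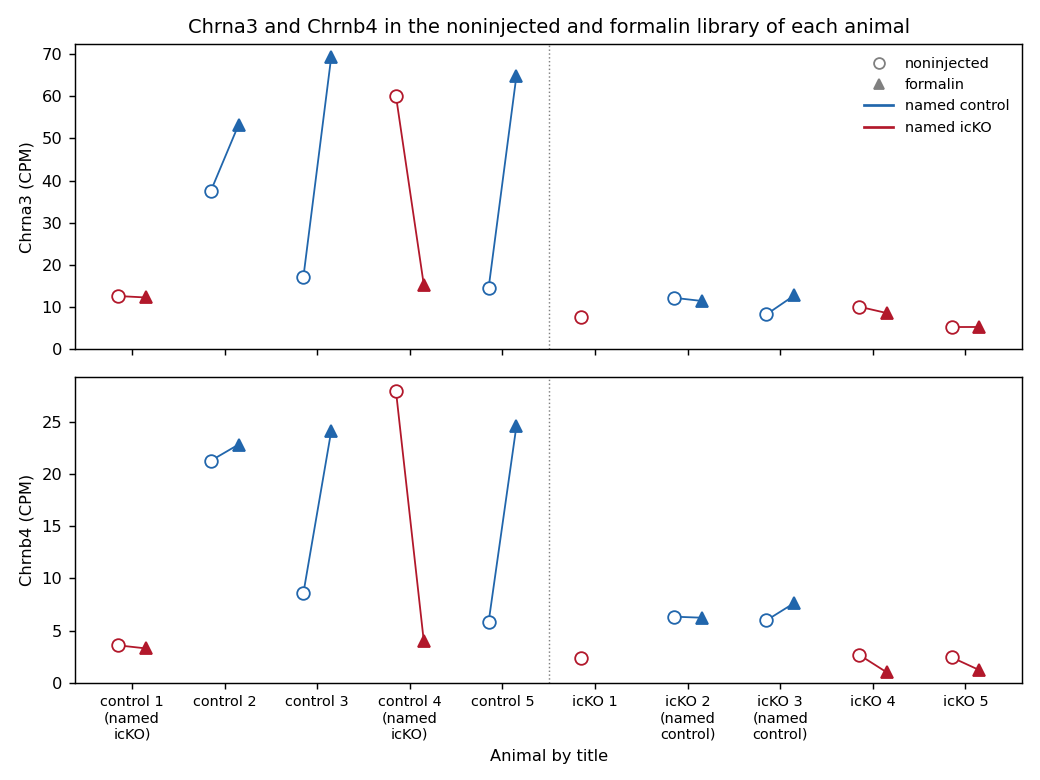
Chrna3 (top) and Chrnb4 (bottom) in CPM for the noninjected (open circles) and formalin (filled triangles) library of each animal, joined by a line, with animals ordered by title and coloured by the genotype word of the deposited name. Chrna3 exceeds 37 CPM in the formalin libraries of control 2, 3 and 5 and the noninjected libraries of control 2 and 4, and lies at or below 17.1 CPM elsewhere.

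Neither record of genotype sorted both genes of this pair. In animal totals, Chrna3 averaged 35.5 ± 13.1 CPM over animals titled control and 8.88 ± 2.53 CPM over those titled icKO (SD, 5 animals each), a ratio of 4.00. The titled groups did not overlap, but by a small gap, with control 1 at 12.5 CPM and icKO 2 at 11.7 CPM. By deposited name the means were 29.2 ± 16.6 CPM for control and 15.2 ± 15.0 CPM for icKO (SD, 5 animals each), and the groups overlapped. For Chrnb4 the titled groups averaged 14.8 ± 6.93 CPM (control) and 3.75 ± 2.57 CPM (icKO; SD, 5 animals each). The named groups averaged 13.1 ± 6.58 CPM (control) and 5.44 ± 7.13 CPM (icKO; SD, 5 animals each), and the groups overlapped under both records. The fitted log2 fold (icKO minus control) of Chrna3 was -1.97 (SE 0.39) by title, -1.10 (SE 0.64) by name and 0.98 (SE 0.56) by name within the 4 animals whose records differ. For Chrnb4 these values were -2.17 (SE 0.64), -1.49 (SE 0.77) and 0.45 (SE 0.79). Without control 4, the folds by name were -1.71 (SE 0.54) for Chrna3 and -2.51 (SE 0.47) for Chrnb4. In the animals whose records differ, single animals set the fold: without control 4 it was 0.16 (SE 0.26) for Chrna3 and -0.93 (SE 0.18) for Chrnb4, and without control 1 it was 2.02 (SE 0.31) and 1.96 (SE 0.20). The sign of Chrnb4 also turned without control 2 (-0.19, SE 0.69), an animal whose records agree and which enters this fit through the sex term. Of the animals with differing records, control 1, icKO 2 and icKO 3 were female and control 4 was male. Without control 1, the fold thus compares a male with females and rests on the sex term. The SEs of this fit draw on a spread shared over all animals. On the log2 scale, 3 of the 4 animals with differing records were nearer the agreeing animals of their titled group for Chrna3, and 3 of 4 nearer those of their named group for Chrnb4.

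Chrna5, the accessory subunit of this gene group, gave 0 to 8 counts in a library and 2 to 13 in an animal. Its animals ranged from 0.14 to 0.45 CPM, and groups overlapped under both records. In RefSeq the spans of Chrna5 and Chrna3 share 1304 bases, and the library kit did not mark the strand, so reads there cannot be told apart. In the GENCODE annotation at hand, no exon bases of Chrna5 and Chrna3 overlap. Whether any counts are touched by the shared stretch was not measured.

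Of 14174 genes with a mean of at least 1 on the log2 CPM scale, those most like Chrna3 over the 10 animals by Pearson's r were Fuz (0.96), Ccdc28b (0.95), Gal (0.95), Grin2d (0.95) and Hoxd11 (0.94). Chrnb4 came next at 0.94. Those most like Chrnb4 were Gal (0.97), Gfra3 (0.97), Sertm1 (0.96), Flt3l (0.95) and Grin2d (0.95). Gal encodes galanin, Gfra3 the co-receptor through which peptidergic nociceptors bind artemin, and Grin2d an NMDA receptor subunit. These r are descriptions over 10 animals whose Chrna3 falls into a high and a low set, and animals share their libraries between genes. Over the 19 libraries, Hoxd10 was the gene most like Chrna3 (r 0.93), and Hoxd11 the fifth (0.90). Hox genes of this end of the clusters mark position along the body axis. The 5 libraries highest in Chrna3 were also the 5 highest in Hoxd10, at 12.7 to 27.6 CPM, with 2.36 to 11.6 CPM in the others, and the 5 highest in Hoxd11, at 6.86 to 10.3 CPM against 0.62 to 6.43 CPM. Within the 14 libraries low in Chrna3, its r was 0.79 with Hoxd10, 0.74 with Gal, 0.73 with Hoxd11, 0.69 with Chrnb4 and 0.54 with Prdm12. In the same libraries the r of Chrnb4 with Prdm12 was 0.91, the highest of the pairs read. Some of these libraries come from the same animal, so they are not independent.

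The 11 posterior Hox genes that passed the same level were then listed, after these values were seen. Beside Hoxd10 and Hoxd11, their r with Chrna3 over the 19 libraries was 0.71 for Hoxd9 and 0.53 for Hoxd8, and -0.87 for Hoxb9, -0.80 for Hoxb8 and -0.64 for Hoxc8. The others were weak, with 0.19 for Hoxc10, -0.11 for Hoxa10, -0.35 for Hoxc9 and -0.42 for Hoxa9, so that the paralogues of Hoxd10 in other clusters did not follow Chrna3. Hoxb9 ran from 8.74 CPM in the formalin library of control 2 to 22.5 CPM in the noninjected library of icKO 5, the library lowest in Chrna3. Whether the lumbar level of the ganglia had a part in the Chrna3 and Chrnb4 values was not tested.

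**Figure D3:**
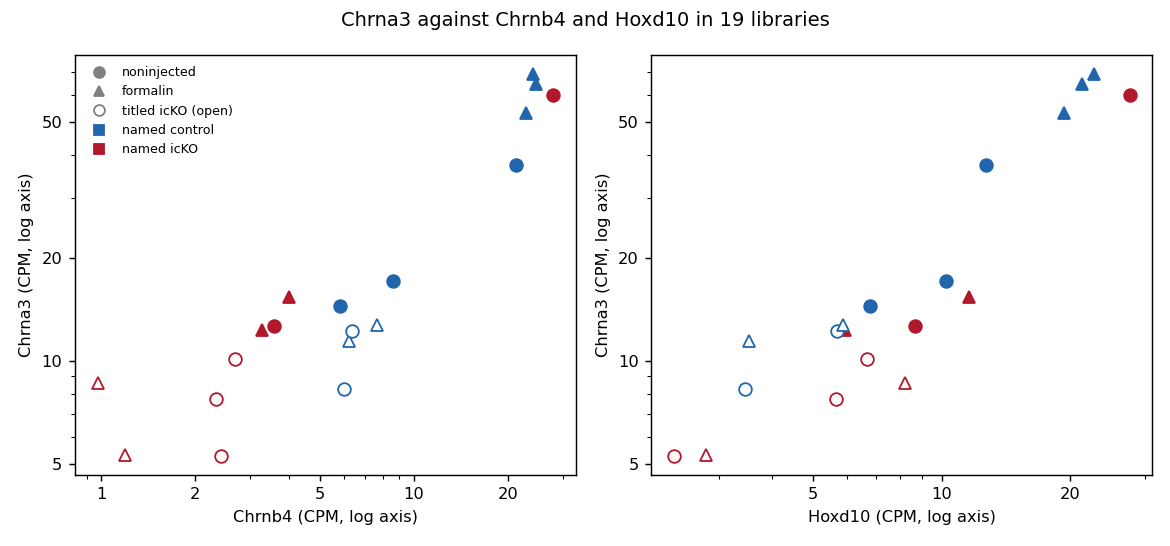
Chrna3 against Chrnb4 (left) and Hoxd10 (right) in 19 libraries, all in CPM on log axes, with circles for noninjected, triangles for formalin, open symbols for titled icKO and colours for the named genotype. The 5 libraries above 37 CPM of Chrna3 are the 5 above 12 CPM of Hoxd10.

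Markers of other neurons were read beside these values. Sympathetic neurons are a known source of Chrna3 and Chrnb4, and their defining genes were near 0: Dbh reached at most 0.17 CPM, Phox2a was at 0 in 16 of 19 libraries and Hand2 in 12. The summed level of the 9 sympathetic markers was 10.3 to 15.7 CPM in libraries titled control and 9.43 to 18.4 CPM in those titled icKO, most of it from Slc18a2 (7.26 CPM or more). The summed level of 8 peptidergic nociceptor markers, among them Gal, Gfra3 and the targeted Prdm12 itself, was 2428 to 3665 CPM in libraries titled control and 1982 to 2603 CPM in those titled icKO. By deposited name it was 2031 to 3480 CPM in control and 1982 to 3665 CPM in icKO. It was highest in the noninjected library of control 4 (3665 CPM) and the formalin libraries of control 5 (3480 CPM) and control 3 (3298 CPM), which were 3 of the 5 libraries high in Chrna3. By title, 0 of the 8 passed the threshold and all 8 had negative folds (median log2 fold -0.59, with Prdm12 at -0.93). Other sensory neuron lists also differed by title, with 0 markers past the threshold. The summed level of 7 A-fibre markers had a median of 2457 CPM in libraries titled control and 3087 CPM in those titled icKO (2086 to 2981 and 2331 to 4088 CPM). That of 4 markers of C-low-threshold mechanoreceptors had medians of 289 and 220 CPM (206 to 348 and 161 to 259 CPM). In bulk tissue, fewer cells of a type and less RNA per cell cannot be told apart, and the part of these cell types in the Chrna3 and Chrnb4 values was not tested.

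Chrna6, the most abundant subunit, divided by the deposited name in all 10 animals. Animals named icKO were at 229.9 CPM (control 1), 256.0 (control 4), 219.6 (icKO 1), 230.9 (icKO 4) and 168.3 (icKO 5). Animals named control were at 75.5 (control 2), 88.4 (control 3), 90.1 (control 5), 76.8 (icKO 2) and 91.8 (icKO 3). The means were 220.9 ± 32.3 CPM and 84.5 ± 7.72 CPM (SD, 5 animals each), 2.61 times higher in animals named icKO, whereas by title they were 157.5 ± 71.0 CPM in icKO and 148.0 ± 87.3 CPM in control. The division held in each agent. Noninjected libraries were at 190.0 to 266.8 CPM when named icKO and 74.7 to 91.8 CPM when named control, and formalin libraries at 150.6 to 264.1 and 72.3 to 103.1 CPM. The fitted log2 fold was 1.38 (SE 0.11) by name over all animals, 1.28 (SE 0.14) in the agreeing animals and 1.48 (SE 0.18) in the 4 animals whose records differ, against 0.12 (SE 0.48) by title. Chrna6 was thus high in the 5 animals in which Prdm12 was low and low in the 5 in which it was high (r -0.90 over 10 animals).

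Chrnb3, the accessory subunit whose gene lies next to Chrna6, followed it less closely. Noninjected libraries named icKO were at 21.2, 40.7, 22.2, 28.7 and 22.7 CPM (control 1 and 4, icKO 1, 4 and 5), and those named control at 14.8, 12.3, 11.96, 8.63 and 15.1 CPM (control 2, 3 and 5, icKO 2 and 3). These groups did not overlap, with a log2 fold of 1.05 (SE 0.21). With formalin they overlapped, at 13.4 to 22.3 CPM named icKO and 8.87 to 24.9 CPM named control, and the log2 fold was 0.15 (SE 0.25). In animal totals by name the log2 fold was 0.66 (SE 0.19), with 23.4 ± 5.85 CPM in icKO and 14.3 ± 3.48 CPM in control (SD, 5 animals each). These groups overlapped, with control 5 (named control) at 18.0 CPM and icKO 5 (named icKO) at 17.6 CPM. The log2 fold was 0.35 (SE 0.14) in the agreeing animals and 1.14 (SE 0.27) by name in those whose records differ.

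**Figure D4:**
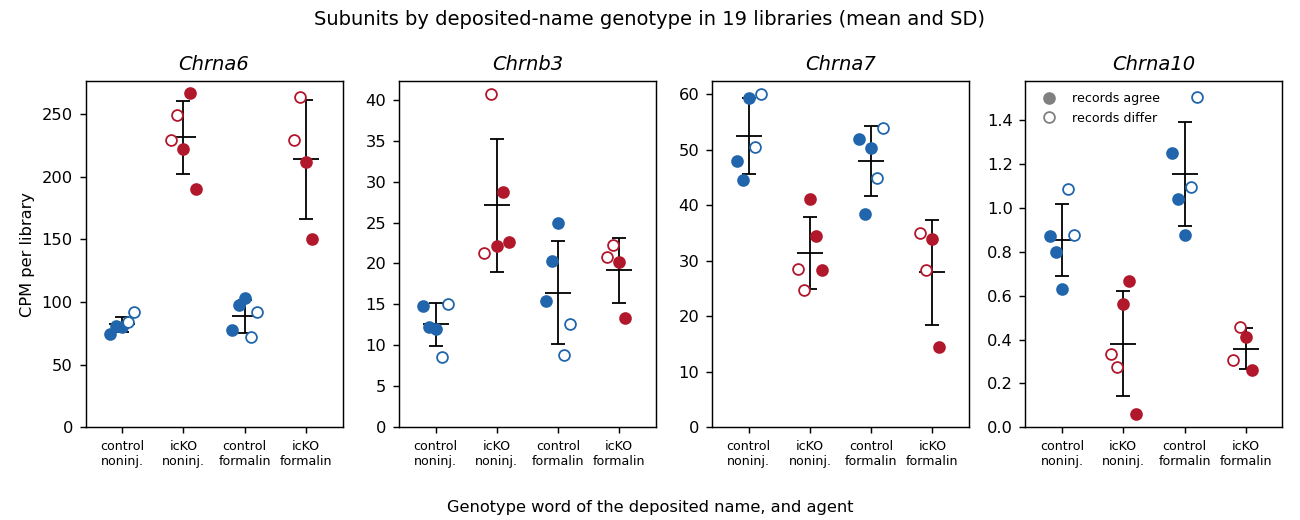
Chrna6, Chrnb3, Chrna7 and Chrna10 in CPM for 19 libraries, grouped by the genotype word of the deposited name and by agent, with mean and SD as bars and open circles for the 4 animals whose title says otherwise. The named groups do not overlap for Chrna6 and Chrna7 under either agent, while for Chrnb3 with formalin the open circles named control (8.87 and 12.7 CPM) lie below the filled ones (15.4 to 24.9 CPM).

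The genes most like Chrna6 over the 10 animals were Stk32a (r 0.98), Tsfm (0.98), Tspan31 (0.98), Mettl1 (0.98) and St6galnac5 (0.97). Tsfm, Mettl1 and Tspan31 lie 1, 3 and 7 protein-coding genes away from Avil, the advillin gene from which Adv Cre lines take their promoter, and Chrna6 lies on another chromosome. Tsfm was at 36.9 to 47.7 CPM in animals named icKO and at 11.5 to 13.7 CPM in animals named control. The r are descriptions over 10 animals at 2 separate levels, so any gene that divides by name scores highly. Summed markers of several other cell types also differed by name. The summed level of 6 erythroid markers was 225 to 1671 CPM in libraries named icKO and 142 to 335 CPM in those named control, and that of 5 neutrophil markers was 294 to 3157 and 171 to 815 CPM. For 6 lymphocyte markers the sum was 7.98 to 38.7 CPM named icKO and 4.62 to 11.3 CPM named control, and for 2 markers of cold-sensing neurons it was 28.6 to 63.9 and 57.1 to 77.1 CPM. None of the markers on these 4 lists passed the threshold by name in animal totals, and their part in the Chrna6 values was not tested.

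Chrnb2, the beta subunit that pairs with Chrna4 and Chrna6, differed little. By name its animals averaged 99.8 ± 24.2 CPM in icKO and 83.1 ± 7.93 CPM in control (SD, 5 animals each), with overlapping groups and a log2 fold of 0.31 (SE 0.12). The animal icKO 1 stood highest at 137.8 CPM, and its total is the noninjected library alone. Markers of all sensory neurons also varied between libraries, with Tubb3 at 1366 to 2986 CPM and Snap25 at 1294 to 1801 CPM. The part of neuronal content in the values of Chrnb2 was not tested. In noninjected libraries the log2 fold by name was 0.43 (SE 0.11). In the annotation at hand, 16.3% of its exon bases overlap those of Adar on the opposite strand. Chrna4 was at 1.77 to 3.34 CPM in every animal, and its log2 fold was -0.23 (SE 0.16) by name and -0.11 (SE 0.18) by title. With formalin its named groups did not overlap, at 2.36, 2.03, 1.44 and 2.28 CPM in icKO (control 1 and 4, icKO 4 and 5) and 3.36, 3.99, 3.71, 2.44 and 3.62 CPM in control (control 2, 3 and 5, icKO 2 and 3). Without injection they did, at 2.11 to 3.30 and 1.31 to 3.24 CPM.

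Chrna7, the subunit of calcium-permeable homomeric receptors, was lower in animals named icKO. These were at 32.2, 26.3, 40.7, 33.8 and 20.7 CPM (control 1 and 4, icKO 1, 4 and 5), and animals named control at 49.5, 41.7, 54.4, 47.1 and 56.6 CPM (control 2, 3 and 5, icKO 2 and 3). The named groups did not overlap, 41.7 CPM in control 3 lying just above 40.7 CPM in icKO 1. The means were 30.7 ± 7.59 and 49.9 ± 5.91 CPM (SD, 5 animals each), 1.62 times higher in control, and the log2 fold was -0.67 (SE 0.15) by name, -0.69 (SE 0.27) in the 4 animals whose records differ and -0.16 (SE 0.28) by title.

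Chrna10, which needs Chrna9 to form a channel, gave 6 to 45 counts in an animal, while Chrna9 gave 0 to 4. Animals named icKO were at 0.32, 0.35, 0.56, 0.51 and 0.17 CPM (control 1 and 4, icKO 1, 4 and 5), and animals named control at 1.03, 0.91, 0.74, 1.09 and 1.21 CPM (control 2, 3 and 5, icKO 2 and 3). The groups did not overlap, with a log2 fold of -1.37 (SE 0.28) by name and -0.10 (SE 0.48) by title. Of the exon bases of Chrna10, 39.0% overlap those of Art1 on the opposite strand, and strand was not kept. Art1 was at 0.09 to 0.98 CPM in 18 libraries and at 3.94 CPM in the formalin library of icKO 5, which held muscle transcripts, and Chrna10 in that library was at 0.26 CPM. No fold is given for Chrna9, whose libraries all lie at or under a floor of 3 counts.

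Chrna7 and Chrna10 were alike over the 10 animals (r 0.93) and less so over the 19 libraries (r 0.74). Both divide by name without overlap, and genes that do so in the same direction score highly with each other. Chrna10 also rests on few counts. The upstream regions of Chrna7 and Chrna10 are shown to set them side by side, with the marks as above.
Chrna7, chr7:63212477-63212776, minus strand: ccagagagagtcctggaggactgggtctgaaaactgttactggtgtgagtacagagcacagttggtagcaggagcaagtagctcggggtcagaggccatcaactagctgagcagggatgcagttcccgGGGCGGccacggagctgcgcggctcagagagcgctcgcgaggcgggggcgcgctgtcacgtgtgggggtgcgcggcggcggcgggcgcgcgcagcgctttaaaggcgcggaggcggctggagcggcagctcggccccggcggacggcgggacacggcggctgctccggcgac
Chrna10, chr7:102116664-102116963, minus strand: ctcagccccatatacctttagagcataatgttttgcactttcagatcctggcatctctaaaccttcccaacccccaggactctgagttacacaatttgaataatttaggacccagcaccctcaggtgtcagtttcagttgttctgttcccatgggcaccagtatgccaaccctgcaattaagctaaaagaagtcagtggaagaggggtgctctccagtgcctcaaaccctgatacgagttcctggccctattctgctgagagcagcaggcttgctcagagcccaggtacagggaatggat
The Chrna7 window was 70.0% G and C with 35 CpG and 1 GC box, and the Chrna10 window 49.3% with 1 CpG and 0 GC boxes. Each held 2 E-boxes, and neither held the SOX or homeodomain core.

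By record, the subunits were of 3 kinds. Chrna6, Chrna7 and Chrna10 followed the deposited name, with named groups that did not overlap in animal totals. Chrnb3 went with the name less closely, and its named groups overlapped in animal totals and in formalin libraries. In each of the 4 animals whose records differ, all of these subunits were nearer the agreeing animals of the named group. For Chrnb3 the agreeing groups lay close together, at 4.02 (control) and 4.38 (icKO) on the log2 CPM scale. Chrna3 and Chrnb4 were high in 5 libraries of animals titled control, 1 of them from an animal named icKO, and low in both libraries of control 1. Chrna4, Chrnb2 and Chrna9 (0 to 4 counts in an animal) were nearer the named group in 2 of the 4 animals, and Chrna5 in 3. The share of all genes nearer the named group in all 4 was not counted, so this sorting only describes. By title, 0 of the 9 subunits fitted passed an adjusted p of 0.05 (edgeR's quasi-likelihood test), as did 0% of 19441 genes, with 1815 genes at an unadjusted p under 0.05 and 67 called by DESeq2. By name, 2 of 9 passed (Chrna6 and Chrna10), beside 1.08% of genes. In the agreeing animals 3 of 9 passed, beside 0.897%. Of these, Chrna3 and Chrnb4 were chosen on the same animals, and the other was Chrna6. In the 4 animals whose records differ 1 of 9 passed (Chrna6), beside 0.105%. In noninjected libraries by name 4 of 8 passed (Chrna6, Chrnb3, Chrnb2 and Chrna7), beside 6.77%, and in formalin libraries 1 of 8 (Chrna6), beside 0.157%.

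The count of genes whose groups do not overlap reads the values alone. In animal totals by title it held for 1 of the 9 subunits (Chrna3), beside 1.32% of genes. By name it held for 3 of 9 (Chrna6, Chrna7 and Chrna10), beside 4.12%. In noninjected libraries by name it held for 3 of 8 (Chrna6, Chrnb3 and Chrna7), beside 8.41%, and in formalin libraries for 5 of 8 (Chrna6, Chrna7, Chrna10, Chrna4 and Chrnb4), beside 5.71%. The median log2 fold of the subunits fitted was -0.54 by name and -0.11 by title, with 0.00 and 0.01 over all genes. These comparisons share animals, and the subunits were chosen on them, so the counts describe and do not test.

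**Figure D5:**
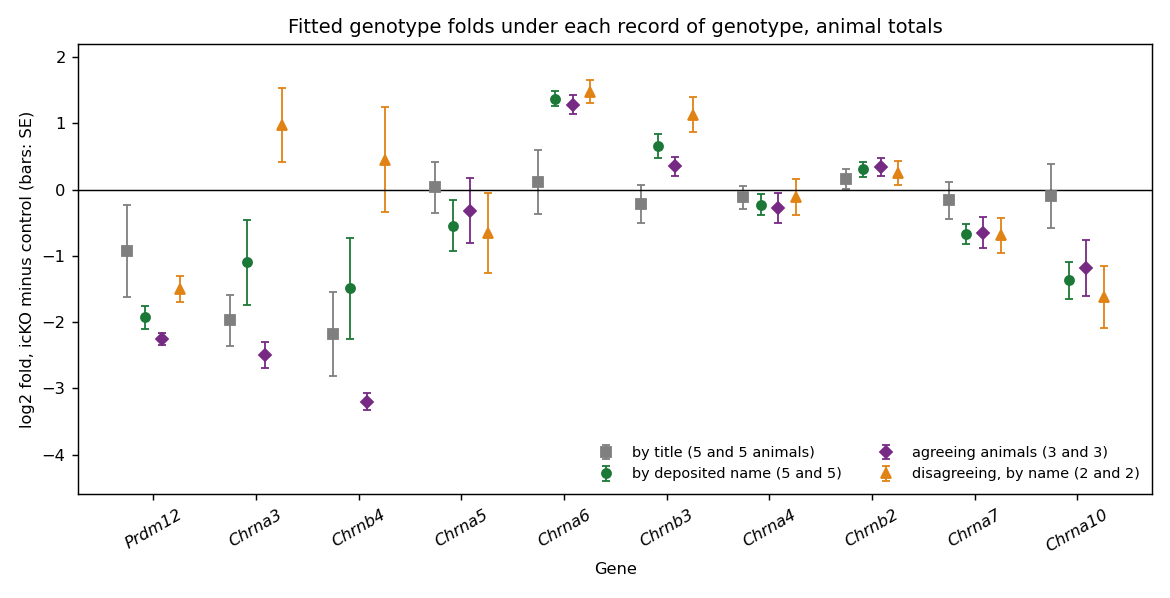
Fitted log2 folds (icKO minus control) with SE for Prdm12 and the 9 subunits fitted, by title, by deposited name, in the 6 agreeing animals and by name in the 4 animals whose records differ. Chrna6 stays between 1.28 and 1.48 in the latter 3 and is at 0.12 by title, while Chrna3 and Chrnb4 are negative in the agreeing animals and above 0 in the differing ones (for Chrnb4, -0.93 without control 4).

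Formalin itself moved no subunit past the threshold. The fit over all animals held sex and both records but no term for the animal. The log2 difference (formalin minus noninjected) ran from -0.32 (SE 0.46) for Chrnb4 to 0.29 (SE 0.24) for Chrna10. The adjusted p in edgeR was 0.959 or more for each of the 8 subunits fitted. Of 17931 genes, 1 passed (0.00558%), and DESeq2 also called none of the subunits. Within animals, Chrna10 was higher with formalin in 7 of 9 and Chrna6 and Chrnb2 in 6 of 9, while Chrna7 was lower in 6 of 9. The small mean difference of Chrna3, 0.16 (SE 0.37), came from large changes of both signs, from 2.16 in control 5 and 2.02 in control 3 to -1.97 in control 4.

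Whether formalin acted differently in the named genotypes was tested by an interaction (formalin effect in named icKO minus that in named control). The largest estimates were -2.40 (SE 0.74) for Chrnb4, -1.75 (SE 0.61) for Chrna3, -0.87 (SE 0.29) for Chrnb3 and -0.85 (SE 0.31) for Chrna4, with edgeR's adjusted p of 0.103, 0.118, 0.109 and 0.120. None of the 8 subunits and 0% of 17931 genes passed, though 4432 genes had an unadjusted p under 0.05. DESeq2 called 1138 genes, among them Chrnb4 (-2.27, SE 0.71, adjusted p = 0.0320) and Chrnb3 (-0.87, SE 0.29, adjusted p = 0.0429). Leaving out control 1 brought Chrnb4 (-2.60, adjusted p = 0.0309) and Chrnb3 (adjusted p = 0.0451) past edgeR's threshold, and leaving out control 4 brought it to -1.57 (adjusted p = 0.153). By agent, the log2 fold of Chrnb4 by name was -2.90 (SE 0.62) with formalin and -0.50 (SE 0.97) without, the latter -1.72 (SE 0.45) once control 4 was left out. Named icKO formalin libraries were at 3.28, 4.00, 0.98 and 1.19 CPM and the named control ones at 22.9, 24.1, 24.6, 6.23 and 7.64 CPM. The formalin library of icKO 5 held 1899 CPM of 8 skeletal muscle markers, against at most 310 CPM in the other 18 libraries, and without it the Chrnb4 interaction was -2.48 (adjusted p = 0.218).

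Other genes of the nicotinic system were read from lists chosen with earlier results of these data known. Muscle-type subunits were nearly absent: Chrnd was at 0 counts in every animal, Chrng reached 0.05 CPM and Chrne 0.35 CPM, while Chrna1 (1.26 to 2.37 CPM) and Chrnb1 (4.04 to 5.44 CPM) were measurable. Chrna2, the remaining neuronal subunit listed, was at 0.03 to 0.16 CPM. Of the 2 muscle-type subunits fitted, none passed by name, Chrna1 having a log2 fold of -0.07 (SE 0.18) and Chrnb1 of 0.01 (SE 0.11). Of 8 assembly and trafficking genes, none passed in animal totals by name. The nearest were Tmem35a, the NACHO chaperone of these receptors, at -0.19 (SE 0.07), and Ywhah, a 14-3-3 adaptor, at 0.18 (SE 0.10). The chaperone gene Ric3 was at 94.9 to 119.5 CPM in every animal.

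The lists below are read beside 1.08% of all genes called by name in animal totals, 6.77% in noninjected and 0.157% in formalin libraries. Of 6 Ly6 family modulators fitted (8 listed), Lypd6b fell by name, from 11.96 ± 0.97 CPM in control to 8.34 ± 0.62 CPM in icKO (SD, 5 animals each), a log2 fold of -0.50 (SE 0.09; edgeR adjusted p = 0.0240). In noninjected libraries it also fell (-0.47, SE 0.10, edgeR adjusted p = 0.0196), and Ly6h rose (0.37, SE 0.10, edgeR adjusted p = 0.0391). Of 6 fitted genes that make, move and break down acetylcholine, 0 passed in animal totals by name and 1 in noninjected libraries. This was Ache, acetylcholinesterase, which rose in libraries named icKO (log2 fold 0.83, SE 0.14, edgeR adjusted p = 0.00891), and whose log2 fold in animal totals was 0.50 (SE 0.13, edgeR adjusted p = 0.0983). Chat, which makes acetylcholine, and its vesicular transporter Slc18a3 reached at most 0.13 and 0.06 CPM in an animal. The choline transporter Slc5a7 was at -0.46 (SE 0.25) by name. No muscarinic receptor of 4 fitted passed, and all 4 had positive folds by name, such as Chrm3 at 0.34 (SE 0.17).

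Of 9 fitted transcription factors that earlier work placed at the Chrna5-Chrna3-Chrnb4 genes, Jun rose by name, from 40.8 ± 4.16 CPM in control to 62.4 ± 7.94 CPM in icKO (SD, 5 animals each), a log2 fold of 0.62 (SE 0.10; edgeR adjusted p = 0.0154). In noninjected libraries Jun (0.77, SE 0.10, edgeR adjusted p = 0.00211) and Pou4f3 (0.70, SE 0.15, edgeR adjusted p = 0.0210), a sensory neuron factor, rose. Of 5 fitted genes next to the Chrna5-Chrna3-Chrnb4 group none passed, Psma4, a proteasome subunit, being at -0.16 (SE 0.07) and Nrg4 at -0.06 (SE 0.14). Of 4 fitted neighbours of Chrnb3 and Chrna6, none passed in animal totals, with Unc5d, a netrin receptor, at 0.48 (SE 0.18) and Adrb3 at 1.24 (SE 0.61). In noninjected libraries Unc5d rose (0.78, SE 0.16, edgeR adjusted p = 0.0193). All 4 neighbours had positive folds by name, with a median of 0.33 against 0.00 over all genes. In formalin libraries by name none of the genes on these lists passed. There Ache was at -0.01 (SE 0.16), Ly6h at -0.05 (SE 0.15), Pou4f3 at 0.00 (SE 0.16), Unc5d at 0.20 (SE 0.27), Lypd6b at -0.57 (SE 0.17) and Jun at 0.47 (SE 0.16) on the log2 scale. None of the listed genes passed in the comparison of formalin with noninjected libraries or in the interaction.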

How the data were processed

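Per the labels' protocols, polyA RNA of mouse dorsal root ganglia was sequenced from libraries that do not mark the strand. The submitters' processing notes list the tools STAR 2.7.8a, featureCounts 2.0.1, bcl2fastq 2.20.0.422 and the genome build GRCm39. The deposited values are whole read counts per Ensembl gene, 1 table per library, with no normalization by the authors. Gene IDs were matched to symbols for 94.0% of 55416 genes. The annotation at hand was of GRCm38 (GENCODE M21), a build other than that of the files, and served only for names, exon lengths, overlaps and gene order.

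Of 20 libraries, 19 with over 1000000 counts were used (11763893 to 22392635 counts). Levels are counts per 1000000 (CPM) after TMM scaling in edgeR 4.0.16 (R 4.3.3, limma 3.58.1). Genotype comparisons over animals used the sum of an animal's libraries. All fits were edgeR quasi-likelihood tests on the counts of all genes, with its filter on low counts, sex as a term and Benjamini-Hochberg adjustment (threshold 0.05). The formalin and interaction fits held both genotype records as terms as well, but no term for the animal. The label of each sample gave its titled group, and the word in its deposited name the named group. The libraries came from 10 animals, both libraries of an animal sharing its title number and the animal number of the deposited name.

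The subunits and gene lists were chosen with earlier results of these data known. Named are all subunits, of each list up to 4 genes past the threshold or else the 2 with the smallest p, and the 5 genes most like Chrna3, Chrnb4 and Chrna6. The Hox genes and the split of libraries by Chrna3 level were added after values were seen.

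The 2 libraries of an animal come from the same mouse. Among the formalin fits, only the animal block and limma-voom, both alternatives, took this into account. Deviations of the 2 libraries from group means correlated at -0.05 to 0.48 over 9 pairs. Title numbers shared between genotypes belong to different animals and were not treated as pairs in the main fits. Deviations of the animal totals sharing a number correlated at -0.10 to 0.27. In simulated counts, 82% to 100% of 2-fold and 100% of 4-fold changes were recovered across the comparisons (17148 to 19572 genes). Changes were planted only in genes with many counts, at a spread common to all genes and with no effect of the animal. These shares do not carry over to subunits with few counts (Chrna4, Chrna5, Chrna9 and Chrna10) or a wide spread between animals (Chrna3 and Chrnb4).

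Alternatives were DESeq2 1.42.0, other size factors, no filter, no sex term, both records in 1 fit, limma-voom, an animal block, and leaving out each animal or the icKO 5 formalin library. Each fit sets a difference against the spread between its animals or libraries, and adjusted p-values allow for the number of genes tested.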

Additional observations from a re-analysis of the deposited data

Results flagged for a closer look

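Chrna5 stood apart in 1 library. In the noninjected library of control 2 it was at 0.5 CPM, while the nearest of the other 4 noninjected libraries titled control was at 0.23 CPM and the lowest at 0.13 CPM. The gap to the nearest was 0.721 of the whole range, above Dixon's limit for a group of this size. Of 36 group values examined in this way, 1 stood apart, and chance gives about 1 in 20. Chrna5 reached at most 8 counts in a library, so the value rests on few reads.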

How the results depend on the processing

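Counts of genes called moved with the settings, while Chrna6 by deposited name passed under each of 16 alternatives, with log2 folds from 1.33 to 1.46. Chrna10 by name passed under 7 of 16, and in noninjected libraries Chrna7 passed under 14 of 14, Chrnb3 under 11 and Chrnb2 under 6. Causes of these moves were not tested. Below, each pair gives genes called, then subunits called. The number of genes tested differs between settings, and fits without the filter test every gene with a count. These pairs thus have no common background, and nothing is read from the subunit counts.

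By title (0 and 0), DESeq2 gave 67 and 2, no filter 851 and 2, and leaving out 1 animal 0 to 11 and 0 to 2, the highest without control 1. By name (209 and 2), DESeq2 gave 806 and 4, no filter 1811 and 7, leaving out the icKO 5 formalin library 341 genes, both records in 1 fit 1 subunit, and leaving out 1 animal 76 (without control 3) to 278 and 1 to 3. In agreeing animals (171 and 3), DESeq2 gave 1036 genes, no filter 1880 and 5, no sex term 33 genes, leaving out that library 1391 and 5, and leaving out 1 animal 8 (control 3) to 621 (icKO 1) and 1 to 3. In the animals whose records differ (21 and 1), DESeq2 gave 80 and 2, no filter 445 and 5, leaving out that library 38 genes, and leaving out 1 animal 5 (control 1) to 38 (icKO 5) and 0 to 1, Chrna6 being lost without control 4 or icKO 2.

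In noninjected libraries by name (1175 and 4), DESeq2 gave 2046 genes, no filter 2545, and leaving out 1 animal 175 (control 3) to 1997 (control 1) and 2 to 4. In formalin libraries (29 and 1), DESeq2 gave 634 and 3, no filter 660 and 2, no sex term 165 and 2, and leaving out 1 animal 13 (control 5) to 628 (control 1) and 0 to 2, Chrna6 being lost without control 2, 3 or 5. For formalin against noninjected (1 gene), DESeq2 gave 2, leaving out that library 0, the replicate block by animal 0, and leaving out 1 animal 0 to 1. For the interaction (0 and 0), DESeq2 gave 1138 and 2, no filter 2682 and 4, and leaving out 1 animal 0 to 2092 (control 1) and 0 to 2.

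Some formalin estimates, none past the threshold, changed sign. Leaving out the icKO 5 formalin library gave 0.01 for Prdm12, 0.03 for Chrnb2, 0.06 for Chrna6 and 0.22 for the Chrna7 interaction. Leaving out 1 animal gave -0.14 to 0.11 for Chrna4, -0.15 to 0.02 for Prdm12, -0.11 to 0.04 for Chrnb2, -0.06 to 0.04 for Chrna6, -0.07 to 0.57 for Chrna3, -0.59 to 0.25 for Chrnb4 and -0.15 to 0.19 for the Chrna7 interaction. The block by animal gave 0.00 for Chrnb4 and 0.02 for the Chrna7 interaction, which no filter left at 0.00, and limma-voom gave 0.22 for Chrnb4. The block changed no call of a subunit. At 0 to 8 counts in a library, depth limits Chrna5 and Chrna9.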
